A study of Caenorhabditis elegans with 8 samples.

Results

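*srpr-2.1* and *srpr-2.2* are 2 genes for the RNA of the signal recognition particle (SRP), and they were followed here as the transcripts NR_052308 (*srpr-2.1*) and NR_052302 (*srpr-2.2*) among 50606 RefSeq transcripts counted in *C. elegans* embryos. They were picked from the comparison described here, by their difference between *ztf-11* knockdown and control embryos, so their values in that comparison are a description and carry no test. The annotation holds 5 genes for SRP RNA. Of these, 4 had a transcript in the counts, namely the pair, *srpr-1.2* and *srpr-3*, and *srpr-1.1* was not analysed here.

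The study asked which genes respond when *ztf-11*, the Myt1 family zinc finger gene of the worm, is knocked down. Both groups were embryos of strain TV23837, which carries *ztf-11* tagged with *gfp*, the *eri-1(mg366)* mutation that makes worms hypersensitive to RNAi, and the transgenes *oxIs322* and *ynIs49*. Mothers fed from the L1 stage, for 64 hours at 20 °C, on bacteria with the *ztf-11* RNAi clone (4 libraries, *ztf-11* KD) or with the empty vector L4440 (4 libraries, control), in both cases on plates with 1 mM IPTG. Their eggs were freed by bleaching, kept in M9 for 3 hours and lysed together, so each library is a pool of whole embryos from an independent culture. A difference in such pools can come from fewer cells of a type or from less RNA per cell, and these cannot be told apart.

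The SRP is a particle of 1 RNA and several proteins that binds the signal peptide of a secreted or membrane protein as it leaves the ribosome and brings the ribosome to its receptor on the endoplasmic reticulum. There the growing chain enters the translocon, and signal peptidase cuts the signal peptide. The RNA is made by RNA polymerase III, is present in every cell, and does not carry the long poly(A) tail of an mRNA. The libraries were prepared with a kit for stranded mRNA, which captures RNA by its poly(A) tail. What the counts hold of the SRP RNA is therefore the part that came through that capture, and they give no measure of its whole amount in the embryo.

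The libraries held 39343105 to 45609675 counts each. *ztf-11* itself stood at 31.2 to 68.4 CPM (counts scaled to a common library size, set by edgeR's TMM method) in control and at 9.42 to 14.7 CPM in *ztf-11* KD libraries, and its log2 fold change was -1.97 with a standard error (SE) of 0.27 (quasi-likelihood test of edgeR, unadjusted p = 2.545e-05, adjusted p = 0.262), while DESeq2 gave an adjusted p of 1.18e-07. Control replicate 2 stood apart in stage markers. The maternal RNA of *mex-5*, which polarizes the early embryo, was at 307.0 CPM in it and at 84.5 to 146.7 CPM in the other 7 libraries. *end-1*, an early endoderm GATA factor, was at 26.3 CPM in it and at 6.75 to 8.72 CPM in the others. Of 6 markers of zygotic embryos, *elt-2* of the intestine and *pha-4* of the pharynx had 60.5 to 73.2 and 18.3 to 27.9 CPM. The counted transcripts of *elt-1*, *hlh-1* and *lin-26* were at or near 0. How reads shared by several transcripts were counted is not given, so a value near 0 does not show a silent gene. Of the vitellogenin genes, made in the intestine of the mother, 4 were matched. Their summed level was 0.961 to 1.19 CPM in control and 0.204 to 0.683 CPM in *ztf-11* KD libraries, with most of the group means from *vit-5*, and with *vit-2* and *vit-6* at 0. The part of these markers in the results below was not tested.

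*srpr-2.1* had 327, 36, 537 and 245 counts in control replicates 1 to 4, and 11, 27, 31 and 31 counts in *ztf-11* KD replicates 1 to 4. On the scaled level these were 7.14, 0.854, 11.9 and 6.05 CPM in control and 0.281, 0.636, 0.775 and 0.686 CPM in *ztf-11* KD libraries. The groups did not overlap, but control replicate 2 was only narrowly above the *ztf-11* KD libraries. The mean was 6.49 ± 4.53 CPM in control and 0.594 ± 0.217 CPM in *ztf-11* KD embryos (SD, n = 4 each), or 10.9-fold higher in control embryos. The log2 fold change was -3.44 (SE 0.69).

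*srpr-2.2* had 290, 62, 321 and 166 counts in control replicates 1 to 4, and 5, 31, 6 and 13 counts in *ztf-11* KD replicates 1 to 4. These were 6.33, 1.47, 7.11 and 4.10 CPM in control and 0.128, 0.731, 0.150 and 0.288 CPM in *ztf-11* KD libraries. Here too control replicate 2 was the lowest control, and the highest *ztf-11* KD library was replicate 2. The mean was 4.75 ± 2.53 CPM in control and 0.324 ± 0.280 CPM in *ztf-11* KD embryos (SD, n = 4 each), or 14.7-fold higher in control embryos. The log2 fold change was -3.86 (SE 0.68). Among the 14328 transcripts tested, *srpr-2.2* and *srpr-2.1* ranked 3 and 4 from the lowest log2 fold change. All *ztf-11* KD libraries lay below all controls for 352 transcripts, 2.46% of those tested, and the pair was chosen from among such differences.

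**Figure D1:**
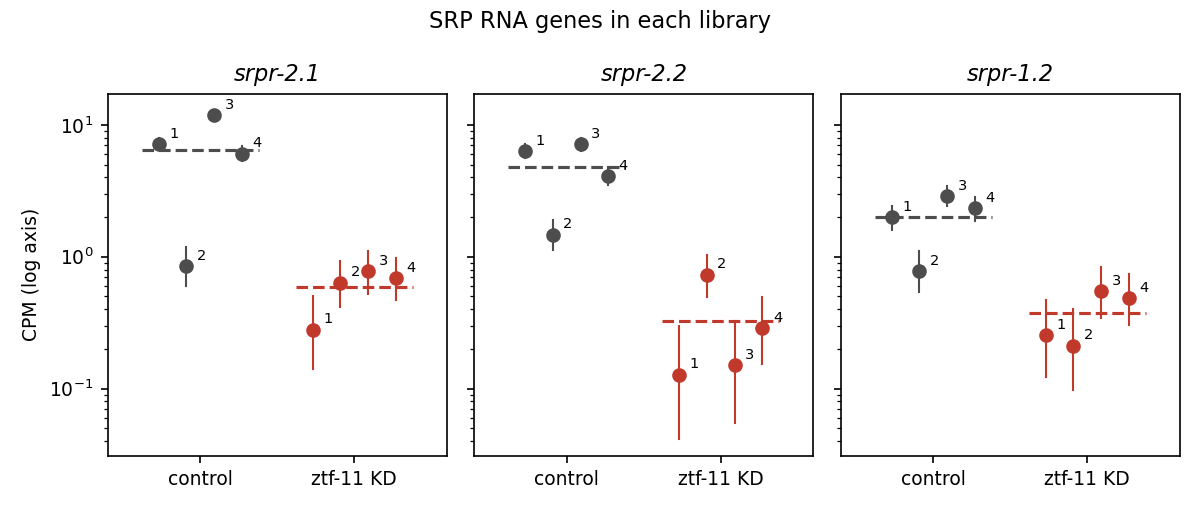
Level of *srpr-2.1*, *srpr-2.2* and *srpr-1.2* in CPM (log axis) in each control (grey) and *ztf-11* KD (red) library. Numbers are replicates, vertical lines are exact Poisson 95% intervals of counting error, and dashed lines are group means. In each panel the *ztf-11* KD libraries lie below the controls, and control replicate 2 is the lowest control, at 0.854, 1.47 and 0.783 CPM.

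Control replicate 2 therefore set how narrow the gap between the groups was. For *srpr-2.1* that library was only 1.102-fold above the highest *ztf-11* KD library, replicate 3. Their exact Poisson 95% intervals, which cover counting error only, ran from 0.598 to 1.18 CPM in control replicate 2 and from 0.526 to 1.1 CPM in *ztf-11* KD replicate 3, so these 2 libraries were not distinguishable at this depth. For *srpr-2.2* the gap was 2.01-fold, and the intervals, 1.13 to 1.89 CPM in control replicate 2 and 0.496 to 1.04 CPM in *ztf-11* KD replicate 2, did not overlap. The other 3 controls lay at 6.05 to 11.9 CPM for *srpr-2.1* and at 4.10 to 7.11 CPM for *srpr-2.2*. Without control replicate 2 the log2 fold changes were -3.81 and -4.16. The spread between cultures was wide. Across all 4 controls *srpr-2.1* ranged 13.9-fold and *srpr-2.2* 4.84-fold, with coefficients of variation of 69.9% and 53.3%. Across the *ztf-11* KD libraries the ranges were 2.76-fold and 5.73-fold.

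The balance between the genes also varied, in a measure that needs no scaling of the libraries. It rests on uniquely mapped reads, so any reads that matched both genes are left out of it. Of the counts on the pair, *srpr-2.1* took 53.0%, 36.7%, 62.6% and 59.6% in control replicates 1 to 4. In *ztf-11* KD replicates 1 to 4 it took 68.8%, 46.6%, 83.8% and 70.5%. The groups overlapped. The exact Clopper-Pearson 95% intervals were wide where counts were few, from 41.3% to 89.0% in *ztf-11* KD replicate 1. They did not overlap between control replicate 2 (27.2% to 47.1%) and control replicate 3 (59.2% to 65.8%), which belong to the same group, though these intervals too cover counting error only. Over the 8 libraries the log2 CPM of the pair had a Pearson correlation of 0.922, and their deviations from the group means one of 0.759, given as a description since both genes come from the same libraries.

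The other SRP RNA genes were not part of the choice, but they are of the same family and were counted in the same libraries. They are therefore no independent check of the pair. *srpr-1.2*, whose annotated length of 299 bases equals that of the pair, had 91, 33, 130 and 94 counts in control replicates 1 to 4. It had 10, 9, 22 and 22 counts in *ztf-11* KD replicates 1 to 4. All *ztf-11* KD libraries were below all controls, as for 2.46% of all transcripts tested, and control replicate 2 was again the lowest control. The mean was 1.99 ± 0.887 CPM in control and 0.376 ± 0.167 CPM in *ztf-11* KD embryos (SD, n = 4 each). The log2 fold change was -2.40 (SE 0.54), and edgeR gave an unadjusted p of 0.00125 and an adjusted p of 0.359, which did not pass the threshold of 0.1. DESeq2 gave -2.42 on the log2 scale and an adjusted p of 0.00333, a call it made for 2.76% of all transcripts it tested and, lower in *ztf-11* KD embryos, for 0.311%. Across the alternatives fitted in edgeR the adjusted p lay between 0.118 and 0.706. *srpr-3* had 0 counts in all 8 libraries, which allows up to 0.0655 to 0.0766 CPM per library. In the annotation it lies wholly within *F44A2.13*, a noncoding RNA gene on the same strand, whose transcript NR_102049 also had 0 counts in each library.

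The pair and *srpr-1.2* lie on chromosome III, and *srpr-3* on chromosome V. In the WBcel235 annotation, whose build differs from the *ce10* build of the counts so that no coordinates are given, *srpr-2.1* overlaps no other gene and has *ZC155.4* and *syx-16* as its nearest protein-coding neighbours, both on the opposite strand. *srpr-2.2* lies in an intron of *klp-6*, a kinesin gene, on the opposite strand, and shares 39 bases with the noncoding RNA gene *R144.16* on its own strand. *srpr-1.2* lies in an intron of *ckb-2*, a choline kinase gene, on the same strand. The strand setting of the counting is not given in the sources used here, so reads of a gene and its antisense partner cannot be told apart. Only uniquely mapped reads were used, so reads that matched several SRP RNA genes would be missing from each of them, and how many did was not tested.

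Of the host and neighbour genes, *klp-6*, *ckb-2* and *ZC155.4* were tested, with log2 fold changes from -0.50 to -0.054. *klp-6* was at 9.76, 6.17, 8.55 and 8.40 CPM in control replicates 1 to 4 and, in *ztf-11* KD replicates 1 to 4, at 8.57, 6.53, 5.55 and 5.40 CPM. Its groups overlapped, with a log2 fold change of -0.34 (SE 0.24, edgeR adjusted p = 0.511). *ckb-2* was at 13.0 ± 3.86 CPM in control and 12.5 ± 2.69 CPM in *ztf-11* KD embryos (SD, n = 4 each). *ZC155.4* had a log2 fold change of -0.50 (SE 0.31), and control replicate 2, at 52.5 CPM, was far above the 17.9 to 24.2 CPM of the other 7 libraries, opposite to its place for *srpr-2.1*. *R144.16* had 2 counts in all.

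The poly(A) capture limits what these levels can say. Together the 3 counted SRP RNA genes held 0.000287% to 0.00229% of the counts of a control library and 6.61e-05% to 0.000156% of those of a *ztf-11* KD library. To compare genes, CPM were divided by the annotated exonic length in kilobases. In control embryos *srpr-2.1* then stood at a mean of 21.7 CPM per kilobase and *srpr-2.2* at 15.9, and in *ztf-11* KD embryos at 1.99 and 1.08. The mRNAs of SRP proteins and receptor subunits stood at 60.8 to 150.4 CPM per kilobase in control and at 55.5 to 153.8 CPM per kilobase in *ztf-11* KD embryos. Even the highest SRP RNA value in any library, 39.8 CPM per kilobase for *srpr-2.1* in control replicate 3, was below the lowest value of those mRNAs, 47.6 CPM per kilobase. Among noncoding transcripts the most abundant was *T05E11.9*, at 4775 CPM in control and 5273 CPM in *ztf-11* KD embryos.

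Other RNAs without an mRNA tail were measured in the same libraries. *rrn-2.1*, a gene of the 5.8S ribosomal RNA, was at 46.9, 44.7, 67.6 and 53.5 CPM in control replicates 1 to 4 and, in *ztf-11* KD replicates 1 to 4, at 16.9, 33.4, 21.6 and 43.2 CPM. All *ztf-11* KD libraries were below all controls, as for 2.46% of all transcripts tested, the closest by a small margin. The log2 fold change was -0.88 (SE 0.28, edgeR adjusted p = 0.381). *rpr-1*, the RNA of RNase P, was at 3.06, 3.23, 6.29 and 2.79 CPM in control replicates 1 to 4 and, in *ztf-11* KD replicates 1 to 4, at 1.68, 1.01, 0.825 and 3.28 CPM. *ztf-11* KD replicate 4 lay among the controls, and the log2 fold change was -1.17 (SE 0.48, edgeR adjusted p = 0.387). Of 19 ribosomal RNA genes only *rrn-2.1* and *rrn-4.3* had any counts, the latter 8 in *ztf-11* KD replicate 2. Only uniquely mapped reads were used, so reads that matched several ribosomal RNA genes would be missing from each of them.

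**Figure D2:**
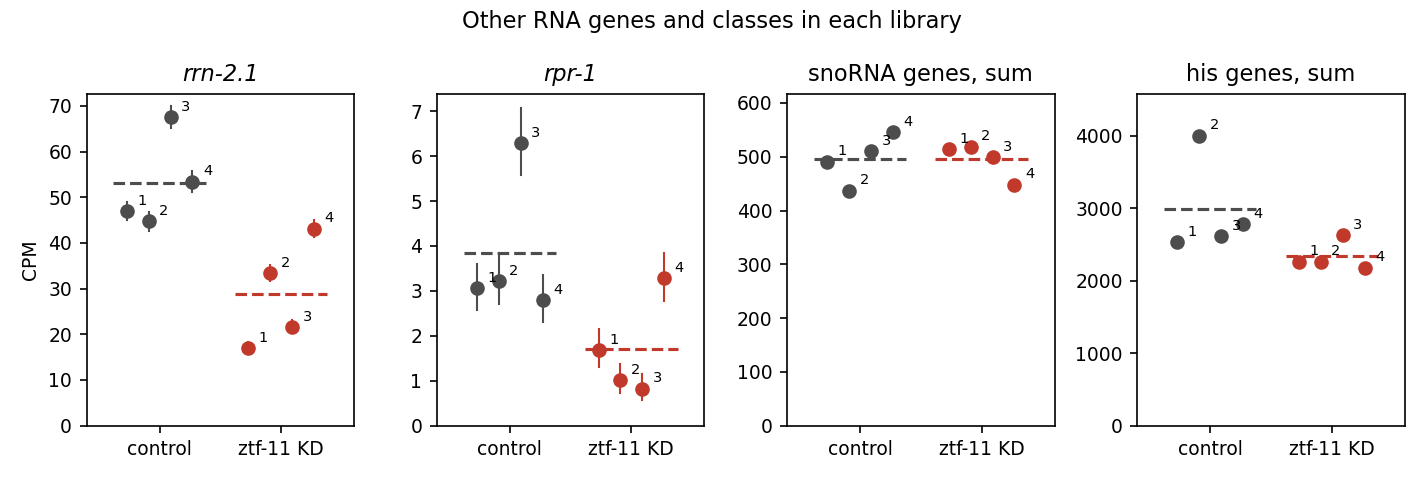
Level in CPM of *rrn-2.1*, *rpr-1*, the sum of snoRNA genes and the sum of *his* genes in each control (grey) and *ztf-11* KD (red) library. Numbers are replicates, dashed lines are group means, and vertical lines, drawn for the single genes, are exact Poisson 95% intervals. *rrn-2.1* is lower in every *ztf-11* KD library, while the snoRNA sums, 437.0 to 546.0 CPM in control, overlap between the groups.

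Summed over classes of RNA, 6 classes were tested with an exact two-sided permutation test over 70 assignments of the libraries, which cannot give a p under 0.0286. Ribosomal RNA genes were at 53.2 ± 10.3 CPM in control and 28.8 ± 11.9 CPM in *ztf-11* KD embryos (SD, n = 4 each), with p = 0.0286 by the exact permutation test and 0.171 when adjusted over the classes. The RNase P and MRP RNAs were at 4.03 ± 1.59 and 1.97 ± 1.07 CPM (SD, n = 4 each, exact permutation p = 0.0857, adjusted 0.171). Histone genes (*his*), whose main mRNAs end without a poly(A) tail, were at 2986 ± 686.3 and 2336 ± 203.2 CPM (SD, n = 4 each, exact permutation p = 0.0857, adjusted 0.171). Control replicate 2, the lowest control for SRP RNA, was the highest for histones, at 4003 CPM against 2534 to 2786 CPM in the other controls. The snoRNA genes were at 496.1 ± 45.5 and 495.4 ± 32.4 CPM (SD, n = 4 each, exact permutation p = 1.0). Small nuclear and spliced leader RNAs added up to at most 2.48 and 0.754 CPM in any library, and *yrn-1*, the Y RNA gene, was at 0. A single class at the smallest p has an adjusted p of 0.171, so no class could pass a threshold of 0.05 on its own. The log2 ratio of the summed levels was -0.88 for ribosomal RNA genes and -1.03 for the RNase P and MRP RNAs. It was -0.002 for snoRNA and -0.04 for spliced leader RNA genes. The ribosomal RNA sum is nearly that of *rrn-2.1* alone, and most of the RNase P and MRP sum is *rpr-1* (mean 3.84 CPM in control). These sums therefore add little to the single genes given above. The part of a carry-over of RNA without a tail in the SRP RNA difference was not tested. Whether the counts on snoRNA genes came from the snoRNAs or from any transcripts that overlap them was not tested either.

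The SRP RNA counts were therefore set beside those of other RNAs of the same library. Per 100 counts of snRNA, snoRNA, spliced leader, RNase P, MRP and Y RNA genes together, of which 98.9% came from snoRNA genes, *srpr-2.1* had 0.193 to 2.29 counts in control and 0.0541 to 0.154 counts in *ztf-11* KD libraries. The groups did not overlap, and the log2 ratio of the group means was -3.38. For *srpr-2.2* it was -3.85, also without overlap. The snoRNA sum hardly differed between the groups (log2 ratio -0.002). Ratios to this reference therefore nearly repeat the difference in CPM by which the pair was chosen, and give no separate support. The reference also carries the limit given above for the counts on snoRNA genes. Per 100 counts of *rrn-2.1*, a reference chosen after seeing the data, *srpr-2.1* had 15.2, 1.91, 17.6 and 11.3 counts in control replicates 1 to 4 and 1.66, 1.90, 3.58 and 1.59 counts in *ztf-11* KD replicates 1 to 4. Control replicate 2 then fell within the range of the *ztf-11* KD libraries. The log2 ratio was -2.40 for *srpr-2.1* and -3.03 for *srpr-2.2*, whose groups still did not overlap, with a lowest control of 3.29 and a highest *ztf-11* KD library of 2.19 counts. Per 100 counts of *rpr-1*, also chosen after seeing the data, the log2 ratio was -1.78 for *srpr-2.1* and -2.265 for *srpr-2.2*. The groups overlapped for both genes, since control replicate 2, at 26.5 and 45.6 counts, was below *ztf-11* KD replicate 2, at 62.8 and 72.1 counts. For *srpr-1.2*, outside the choice but not independent of the pair, the log2 ratio was -2.34 against the small RNA classes, without overlap. It was -1.33 against *rrn-2.1* and -0.89 against *rpr-1*, with overlapping groups for both single genes.

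**Figure D3:**
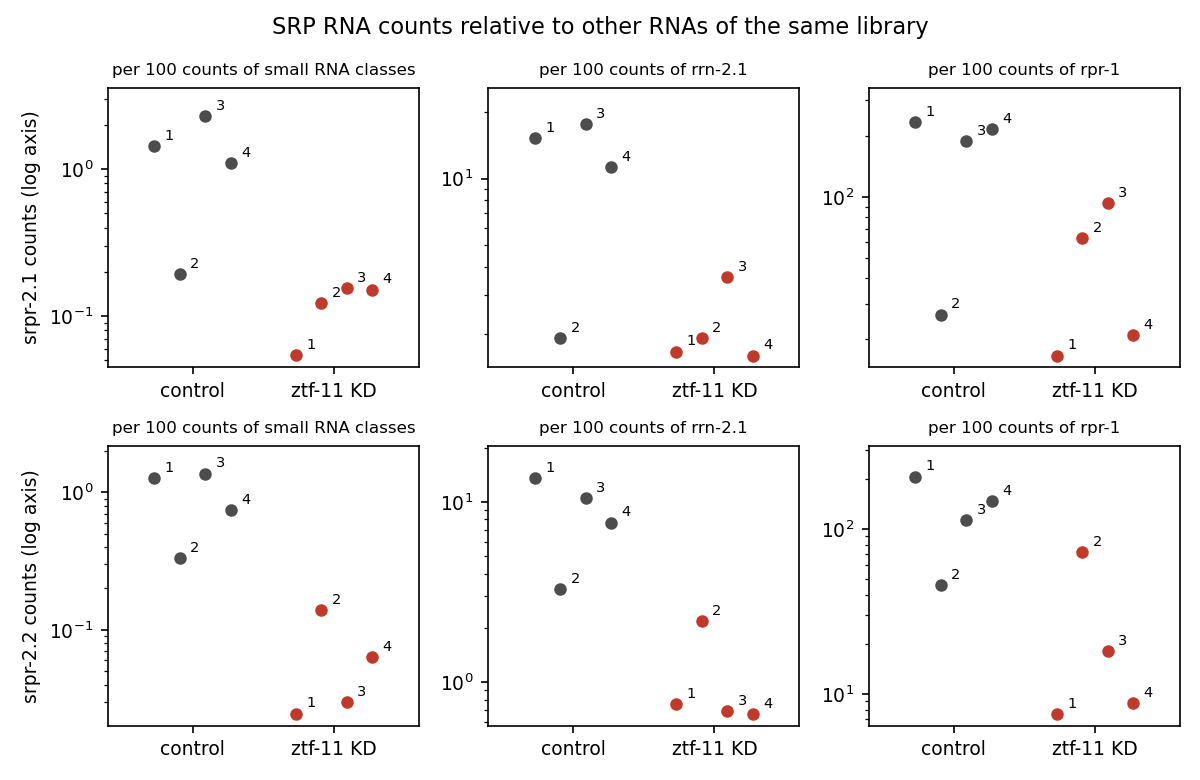
Counts of *srpr-2.1* (top) and *srpr-2.2* (bottom) per 100 counts of small RNA classes, of *rrn-2.1* and of *rpr-1* in the same library (log axes), for control (grey) and *ztf-11* KD (red) libraries, with replicate numbers. Against the small RNA classes the groups do not overlap, and against *rpr-1* control replicate 2 lies within the *ztf-11* KD range.

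The mRNAs of the protein partners showed no such difference, and the proteins themselves were not measured. The capture takes up these mRNAs by a tail that the SRP RNA does not carry, so the levels are not measured alike. The list of SRP proteins and receptor subunits held 7 genes, all of them tested, and 0 reached an adjusted p under 0.1 and 0 an unadjusted p under 0.05 by edgeR, against 0.0% and 12.8% of all transcripts. DESeq2 called 0 of them as well. Their median log2 fold change was -0.081, with a range from -0.26 to 0.033, against a median of -0.0088 over all 14328 transcripts. *srpa-72*, which encodes an SRP protein, was at 254.4 ± 21.4 CPM in control and 238.1 ± 24.7 CPM in *ztf-11* KD embryos (SD, n = 4 each), or -0.095 on the log2 scale (SE 0.12). The other 6, which the gene table gives by sequence name only, were *F37F2.2* at -0.26, *R186.3* at -0.13, *F25G6.8* at -0.081, *ZK512.4* at -0.076, *F38A1.8* at -0.052 and *F21D5.7* at 0.033 on the log2 scale. In each of the 7 the groups overlapped, whereas they did not for 6.07% of all transcripts.

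**Figure D4:**
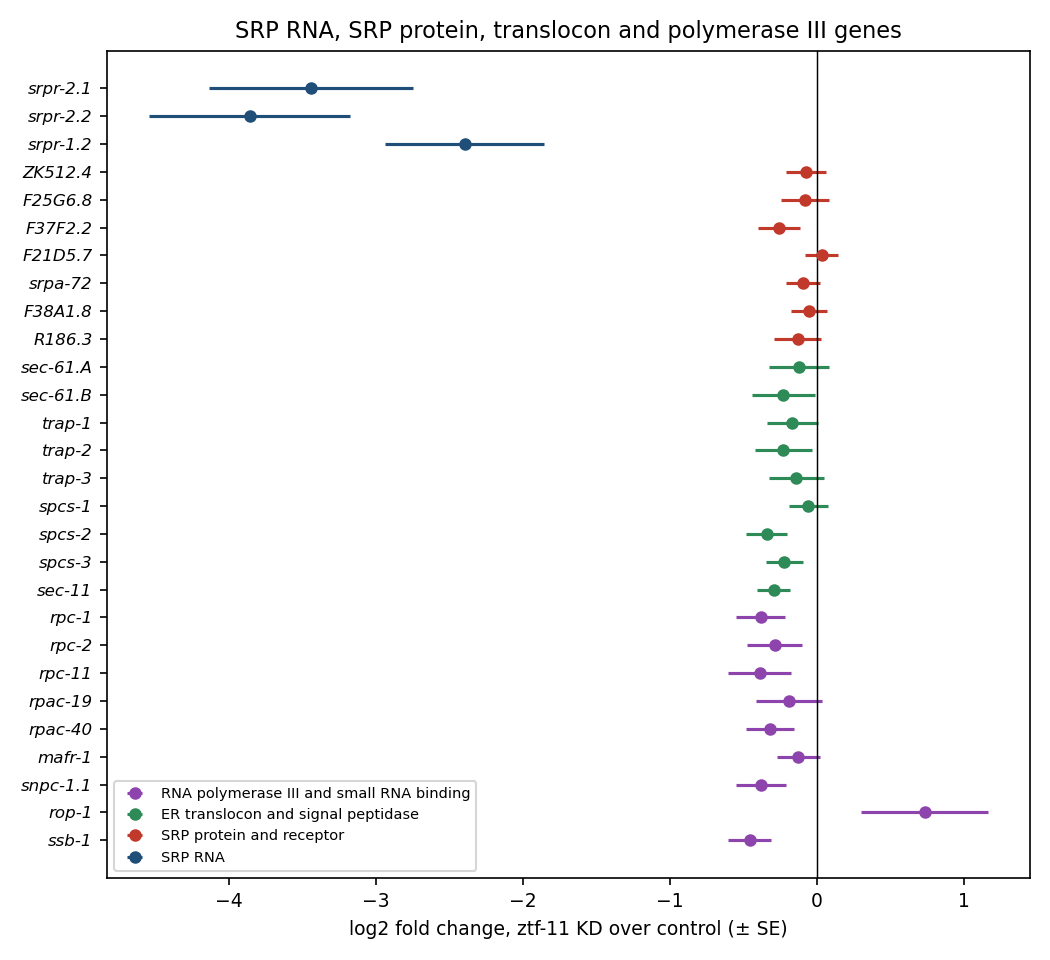
Log2 fold change of *ztf-11* KD over control (points) with its standard error (bars) from edgeR, for 3 SRP RNA genes and the tested genes of 3 lists. The SRP RNA genes lie between -3.86 and -2.40 and the SRP protein and receptor genes between -0.26 and 0.033.

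Further along the pathway, 9 of 11 matched genes of the translocon and signal peptidase were tested. All 9 had a log2 fold change below 0 in this fit and under both other scalings, with a median of -0.22, and of -0.13 without control replicate 2. Of all transcripts, 50.8% were below 0. By edgeR 0 reached the threshold, as did 0 of all transcripts. For 2 the unadjusted p was under 0.05, both lower in *ztf-11* KD embryos, where 3.99% of all transcripts were. These were the signal peptidase genes *sec-11*, at 189.3 ± 16.8 CPM in control and 154.3 ± 11.4 CPM in *ztf-11* KD embryos (SD, n = 4 each), and *spcs-2*, at 116.3 ± 20.5 and 91.9 ± 4.52 CPM (SD, n = 4 each). Their log2 fold changes were -0.29 and -0.34, with adjusted p values of 0.383 and 0.387 from edgeR. *spcs-3*, of the same complex, was at -0.22 on the log2 scale (SE 0.13).

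Of genes for RNA polymerase III, its regulators and proteins that bind its small RNAs, 9 of 11 matched genes were tested and 8 had a log2 fold change below 0, where 50.8% of all transcripts did, with a median of -0.32. Without control replicate 2 the median was -0.20. By edgeR 0 reached the threshold, as did 0 of all transcripts. For 2 the unadjusted p was under 0.05, both lower, where 3.99% of all transcripts were. *ssb-1*, the La protein that binds the ends of new polymerase III transcripts, was at 336.2, 496.8, 406.4 and 357.5 CPM in control replicates 1 to 4 and, in *ztf-11* KD replicates 1 to 4, at 254.6, 276.6, 297.3 and 334.7 CPM. All *ztf-11* KD libraries lay below all controls, as for 2.46% of all transcripts tested. The log2 fold change was -0.46 (SE 0.15, edgeR adjusted p = 0.381). *rpc-1*, the largest subunit of the polymerase, had a log2 fold change of -0.38 (SE 0.17), and *snpc-1.1*, of the complex that starts small nuclear RNA transcription, one of -0.38 (SE 0.17, edgeR unadjusted p = 0.0512). *mafr-1*, the repressor of the polymerase, was at -0.13 on the log2 scale (SE 0.15). *rop-1*, the Ro protein that binds Y RNA, was the only one above 0, with a log2 fold change of 0.73 (SE 0.43) and overlapping groups. It was at 166.1 ± 75.5 CPM in control and 276.1 ± 167.8 CPM in *ztf-11* KD embryos (SD, n = 4 each). Control replicates 1 to 4 were at 145.2, 104.1, 276.0 and 139.1 CPM, and *ztf-11* KD replicates 1 to 4 at 173.1, 255.7, 156.5 and 519.3 CPM. The higher mean thus rested largely on *ztf-11* KD replicate 4.

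Among the 728 other transcripts with a noncoding (NR) identifier that were tested, 0 reached edgeR's threshold, as did 0 of all transcripts. For 38 the unadjusted p was under 0.05, of which 14 were higher and 24 lower in *ztf-11* KD embryos (8.8% and 3.99% of all transcripts). This balance rested on single libraries, since it was 21 higher and 14 lower without control replicate 3, and 5 higher and 26 lower without control replicate 2. Over all transcripts, 1924 were higher and 1014 lower of 14308 without control replicate 3. Without control replicate 2 the counts over all transcripts were 843 higher and 459 lower of 14323. Their median log2 fold change was -0.089. All *ztf-11* KD libraries lay below all controls for 22 of them, or 3.02%, against 2.46% of all transcripts (3.61% of all transcripts had every *ztf-11* KD library above the controls). DESeq2 called 6 of the 728, 1 of them *srpr-1.2*, against 2.76% of all transcripts it tested. The 5 most abundant NR transcripts, *T05E11.9*, *tts-2*, *W06H8.5*, NR_002625 and *W04A8.4*, had log2 fold changes of 0.14, 0.44, 0.063, 0.18 and 0.051, all with overlapping groups.

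The transcripts most like the mean log2 CPM of the pair over the 8 libraries, among those tested, were *tba-6* (Pearson r 0.989), *ZC132.11* (0.967), *etfb-1* (0.935), *osm-5* (0.930) and NM_064939 (0.925), with *srpr-1.2* ranking 6 (0.924). *tba-6*, an alpha tubulin gene, was at 13.6, 8.42, 12.4 and 11.5 CPM in control replicates 1 to 4 and, in *ztf-11* KD replicates 1 to 4, at 5.03, 6.86, 5.75 and 6.42 CPM. Its groups did not overlap, and control replicate 2 was the lowest control. Its choice by likeness to the pair makes both likely in advance, so they carry no test. As a description, the log2 fold change was -0.93 (SE 0.22). *rrn-2.1* ranked 57 (0.850) and *rpr-1* ranked 388 (0.682). By deviations from the group means, where the difference between the groups is taken out, the closest were *F23B12.1* (0.986), NM_060301 (0.986), *lntl-1* (0.981), the ribosomal protein gene *rps-10* (0.979) and *dpf-2* (0.979). *srpr-1.2* ranked 2785 by this measure (0.671). All these correlations run over the same 8 libraries, and with 14328 transcripts compared some reach high values in so few points.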

How the data were processed

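RNA-seq was used to measure gene expression in 8 libraries of embryos, grouped by the titles in the labels. The authors trimmed adaptors with fastx, mapped reads to *ce10* with TopHat2 and deposited raw counts of uniquely mapped reads per RefSeq transcript from featureCounts. The versions, the strand setting, the treatment of reads over several transcripts and the counting of pairs are not given in the sources used here. Names came from a RefSeq gene table of WBcel235, which matched 45715 of 50606 transcripts, and exonic lengths and overlaps from the Ensembl annotation of the same assembly. For genes with several transcripts, that with the highest mean count stands for the gene.

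Counts were fitted with edgeR 4.0.16 in R 4.3.3 (filterByExpr with a minimum count of 10, TMM, glmQLFit with the robust option, glmQLFTest, condition only, Benjamini-Hochberg over all transcripts, threshold 0.1). Standard errors are the log2 fold change over the square root of F. DESeq2 1.42.0 was an alternative. The fit was tested on simulated data. Log2 CPM used a prior count of 2. No library is a copy of another, since the lowest chi-square over its degrees of freedom between libraries of a group was 33.7.

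The pair and the lists were chosen with earlier results of these data known. The rule named *ztf-11*, the SRP RNA genes, their neighbours, the SRP protein and receptor genes, the 3 genes of each other list with the smallest p, the 5 most abundant NR transcripts and the 5 most like the pair by each measure. Any other gene was chosen once its values had been seen. The 12 names on the SRP protein list are 7 genes, some of them listed by gene and sequence name, and all matched. Of 13 translocon names 11 matched, and of 12 polymerase III names 11. The gene table holds no descriptions, so the roles on the SRP protein list could not be checked against it. A gene of that list is not reported here and was left out of its counts and median.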

Additional observations from a re-analysis of the deposited data

Results flagged for a closer look

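Groups of 4 libraries were searched for a highest or lowest library far from the other 3, in 80 groups, and 5 were found, where chance gives about 5% of groups. In control replicate 3 *rpr-1* reached 6.29 CPM, and the other controls lay at 2.79 to 3.23 CPM. *rpc-2*, a subunit of RNA polymerase III, was at 255.5 CPM in *ztf-11* KD replicate 3, against 189.8 to 198.8 CPM in the others of its group. *srpr-2.1* had 3.58 counts per 100 counts of *rrn-2.1* in *ztf-11* KD replicate 3, against 1.59 to 1.90 in the others. *srpr-2.2* had 2.185 counts per 100 counts of *rrn-2.1* in *ztf-11* KD replicate 2, against 0.667 to 0.753, and 72.1 counts per 100 counts of *rpr-1* in the same library, against 7.58 to 18.2 in the others. The last 2 values rest on the same 31 counts of *srpr-2.2*.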

How the results depend on the processing

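The log2 fold changes of the pair kept their direction under every alternative that could be fitted. The pair was chosen by this difference in the same libraries, which made that likely in advance, so it carries no test. *srpr-2.2* could not be fitted with at least 10 counts in every library. With each library left out in turn they ranged from -3.81 to -2.997 for *srpr-2.1* and from -4.63 to -3.60 for *srpr-2.2*. Relative to *rpr-1*, a reference added after seeing the data, they moved to -1.78 and -2.265 by the construction of the ratio, since *rpr-1* was itself lower in *ztf-11* KD embryos. Of all transcripts, 0 passed the threshold in the fit reported, 444 with DESeq2, 6 with every transcript of at least 1 count, and 0 to 3 with a library left out, with 3 without control replicate 2 and 2 without control replicate 3. DESeq2 called 8 noncoding transcripts besides the pair, 6 of them among the 728 that edgeR tested, where edgeR called 0. The SRP protein, translocon and polymerase III lists had 0 past the threshold under all 16 alternatives each. Same-numbered libraries did not deviate together (correlations from -0.642 to 0.00524), and no library correlated best with its own number. With the replicate block the pair stood at -3.13 and -4.02 and 0 transcripts passed. In *ztf-11* KD libraries the pair rests on 5 to 31 counts a library, which limits its precision more than the sequencing depth of abundant genes does.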
